A study of Mus musculus with 2 samples.

Results

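Expression of 10 genes of the smooth muscle program was examined on 2 microarrays of cultured embryonic mouse ureters. The genes were chosen by name as regulators (*Myocd*, *Gata6*, *Srf*) and contractile genes (*Acta2*, *Actg2*, *Tagln*, *Cnn1*, *Myh11*, *Smtn*, *Myl9*) of this cell type, out of 29924 gene names on the array. All 12 array probes that carry one of these names were examined, and 9 of the 10 genes were bright enough to be tested among 20119 genes.

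Wildtype NMRI ureters of E11.5 embryos, of undetermined sex, were kept for 18 h on membranes in serum-free medium with either 10 µM IWP-2 or the solvent DMSO (2:1000). IWP-2 is a small molecule that blocks PORCN, the acyltransferase that WNT proteins need for their secretion. Each of the 2 arrays held RNA from 1 pool of treated ureters and 1 pool of control ureters, labelled with different dyes, with the dyes swapped between replicate 1 and replicate 2. There were thus 2 treated and 2 control pools. Each pool contained RNA of the whole explant, so that fewer cells of a type and less RNA per cell cannot be told apart.

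Smooth muscle cells of the ureter arise from the mesenchyme that surrounds the ureteric epithelium, under the influence of epithelial SHH and WNT signals and of mesenchymal BMP4. At the stage of explantation this mesenchyme is still undifferentiated. MYOCD is a transcriptional coactivator that joins the MADS-box factor SRF on DNA elements known as CArG boxes, in the control regions of many contractile genes. GATA6 is a zinc-finger factor of visceral mesenchyme and smooth muscle. The contractile genes encode the actins, the myosin chains and the proteins that bind to them in the contractile apparatus.

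The sequences upstream of the members were inspected for the CArG box, since it is the element through which SRF and MYOCD act. The CArG box was searched by name on both strands as CC, 6 bases of A or T, and GG, in the 250 bases before the annotated start site (RefSeq, GRCm38.p6). A match was present in 1.47% of 32851 promoters of this length. Of the members, 5 had an entry (*Acta2*, *Cnn1*, *Myl9*, *Smtn*, *Srf*), and of these *Srf* and *Myl9* held a match. A looser pattern, chosen after the sequences had been seen, let 1 of the 6 central bases be C or G. It was present in 8.59% of all promoters, and 2 or more such matches, exact ones included, were present in 0.67%. *Acta2*, *Myl9* and *Srf* each held 2. Neither pattern was found for *Cnn1* and *Smtn*, which says only that these letters are not in this window.

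The upstream windows with a match are shown 5′ to 3′ on the strand of the gene, with the matches in capitals. They lie at chr17:46556163-46556412 (minus strand) for *Srf*, at chr2:156775214-156775463 (plus strand) for *Myl9* and at chr19:34255374-34255623 (minus strand) for *Acta2*. The matches in *Srf* are both exact and begin 82 and 62 bases before the start site. In *Myl9* the exact match begins 161 and the looser match 99 bases before it, and in *Acta2* both looser matches begin 84 and 34 bases before it.
Srf: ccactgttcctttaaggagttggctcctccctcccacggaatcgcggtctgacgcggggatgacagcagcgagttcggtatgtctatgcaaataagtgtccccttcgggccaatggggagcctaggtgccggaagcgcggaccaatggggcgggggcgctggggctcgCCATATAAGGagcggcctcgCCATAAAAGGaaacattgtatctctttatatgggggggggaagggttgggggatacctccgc
Myl9: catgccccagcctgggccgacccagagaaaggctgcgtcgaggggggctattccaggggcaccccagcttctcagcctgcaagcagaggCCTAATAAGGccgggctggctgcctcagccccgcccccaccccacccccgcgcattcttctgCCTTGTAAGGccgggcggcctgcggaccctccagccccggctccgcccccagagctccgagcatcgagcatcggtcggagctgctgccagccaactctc
Acta2: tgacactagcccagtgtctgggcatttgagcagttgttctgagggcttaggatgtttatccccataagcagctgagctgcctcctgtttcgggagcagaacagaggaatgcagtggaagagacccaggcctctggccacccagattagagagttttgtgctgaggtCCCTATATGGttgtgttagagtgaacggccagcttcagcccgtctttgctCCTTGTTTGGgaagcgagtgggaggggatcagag
These matches describe letters only, as no binding was measured here.

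Levels are given below as normalized intensity, the brightness of a probe after background correction and normalization, which includes an offset of 50. They are compared between pools for 1 probe and not between probes. A log2 ratio is the level with IWP-2 over the control on the same array, and a negative value means a lower level with IWP-2. The spread is given as the SD of both ratios, with n = 2 arrays throughout. Genes were tested with limma, and p-values were adjusted over all 20119 genes by the Benjamini-Hochberg method, with a false discovery rate (FDR) of 0.05 as the threshold.

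None of the 9 tested genes passed this threshold, at a background of 1.76% of all genes (355 of 20119). The lowest adjusted p was 0.100, for *Cnn1*. A lower level with IWP-2 on both arrays was seen for 7 of the 9 genes, against 27.5% of all genes. The other two were *Smtn*, higher on both arrays, and *Myocd*, lower on 1 array and higher on the other. At an unadjusted p under 0.05 in limma, 6 of the 9 were lower and none was higher, where 4.74% of all genes were lower at this level. This count was 1 when arrays were centred on the median in place of loess and 2 with the scanner software's processed intensities and a floor of 15. In the same 6 genes (*Cnn1*, *Actg2*, *Gata6*, *Tagln*, *Acta2*, *Myl9*) both treated pools lay below both control pools, as in 18.6% of all genes. The median log2 ratio of the 9 genes was -0.27, beside a median of all genes tested of 9.98e-06. All 9 tested genes had every spot well above background in all channels, so that none entered the test through 1 group alone.

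**Figure D1:**
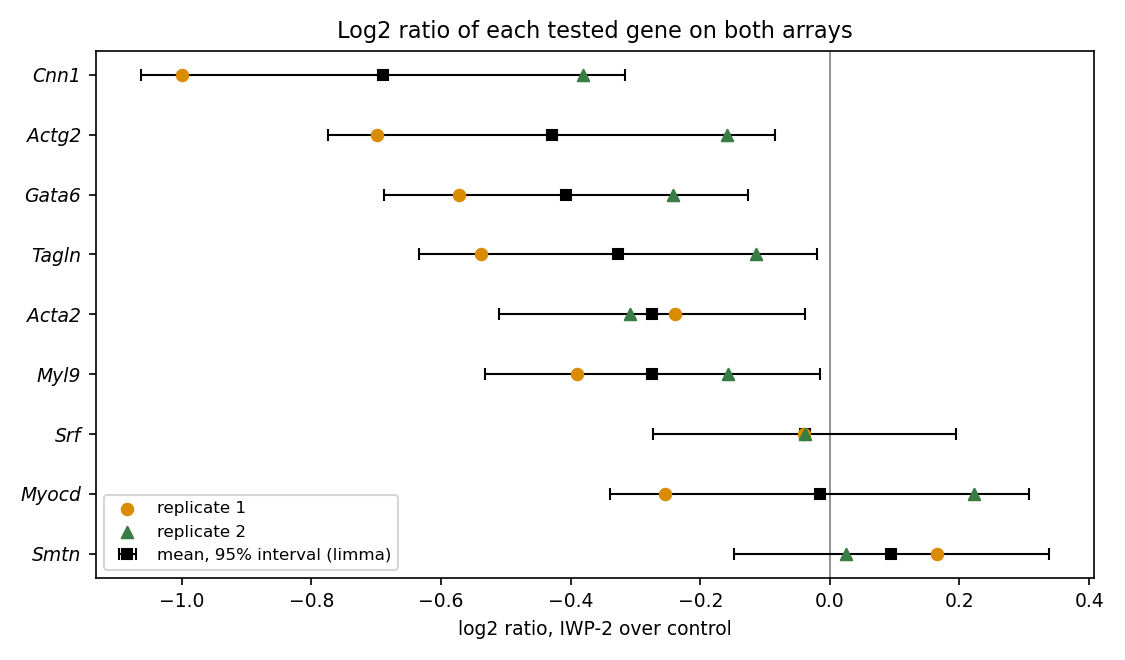
Log2 ratio (IWP-2 over control, horizontal axis) of the 9 tested genes, with circles for replicate 1, triangles for replicate 2, and squares with bars for the mean and its 95% confidence interval from limma. *Cnn1* had the lowest mean, at -0.69, and *Smtn* the highest, at 0.10.

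*Myocd*, the coactivator that marks the onset of the smooth muscle program, was dim in the explants. Its normalized intensity was 154 and 151 in the control pools and 129 and 176 in the treated pools of replicates 1 and 2. One treated pool lay below and the other above both controls. The log2 ratios were therefore opposite, at -0.25 and 0.22, with a mean of -0.02 ± 0.34 (SD, n = 2) and an adjusted p of 0.993. The 95% confidence interval, from -0.34 to 0.31, includes changes of either sign.

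As a sign of how far differentiation had begun, the brightness of *Myocd* was set against spots that match no mouse sequence. In the scanner software's own processed intensities, without the offset, *Myocd* measured 13.8 and 13.6 in the control pools and 9.09 and 18.3 in the treated pools. The 99th percentile of 17214 negative control spots was 8.46 and 7.14 in the control channels and 13.1 and 6.12 in the treated channels. Thus *Myocd* exceeded it in 3 of the 4 channels and lay below it in the treated channel of replicate 1, although all 4 of its spots were marked as well above background in each channel.

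*Gata6* had a strong signal in all pools, with 31620 and 25697 in the controls and 21278 and 21730 after IWP-2. Both treated pools lay below both control pools. The log2 ratios were -0.57 and -0.24, the mean -0.41 ± 0.23 (SD, n = 2), which is 75.4% of the control level. This difference did not pass the threshold (adjusted p = 0.185). Unlike *Myocd*, *Gata6* was therefore far above background in every pool.

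*Srf*, the DNA-binding partner of MYOCD, which is present in many cell types, was represented by a pair of probes. The brighter one, with 5796 and 5406 in the controls and 5636 and 5266 with IWP-2, gave log2 ratios of -0.04 on both arrays. The order of the pools followed the array rather than the treatment, and the treated and control ranges overlapped. With an adjusted p of 0.967 and a 95% interval from -0.27 to 0.20, no difference was detected. A change within this interval could have been missed. So could a larger one, since a mean ratio of -0.41, as for *Gata6*, did not pass the threshold either. The second probe of *Srf* gave -0.05 and -0.18, with a mean of -0.11 (adjusted p over all probes 0.834).

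*Cnn1*, which encodes calponin, an actin-binding protein of differentiated smooth muscle, had the largest difference of the 9 tested genes. It measured 1500 and 1152 in the control pools against 750 and 885 in the treated pools. Both treated pools were dimmer than either control. The log2 ratios were -0.999 and -0.38, with a mean of -0.69 ± 0.44 (SD, n = 2), or 62.0% of the control level. In limma the 95% interval ran from -1.06 to -0.32 and the adjusted p was 0.100. Among all genes tested, 1.08% had a mean ratio as low as or lower than that of *Cnn1*.

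*Actg2*, the γ-actin of visceral smooth muscle, was a dim gene, at 511 and 347 in the controls and 315 and 311 with IWP-2. The controls differed from each other more than the treated pools did, but the groups did not overlap. Its log2 ratios were -0.70 and -0.16, and their mean was -0.43 ± 0.38 (SD, n = 2; adjusted p = 0.254). Its processed intensity, 75.0 and 50.7 in the controls, was above the 99th percentile of the negative control spots and below 100, the minimum of the study's own filter.

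*Acta2*, the α-actin of smooth muscle and one of its earliest markers, was bright already in the controls, with 17101 and 15201, and measured 14487 and 12271 after treatment. Both treated pools were below both controls, and the ratios of both arrays lay close together, at -0.24 and -0.31. The mean of -0.27 ± 0.05 (SD, n = 2) corresponds to 82.7% of the control level (adjusted p = 0.292). *Acta2* was the only tested gene among the 9 with a larger difference on replicate 2 than on replicate 1.

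The actin-binding protein gene *Tagln*, known also as SM22α, was read at 26126 and 22952 in the control pools and at 17987 and 21200 in the treated pools. The groups did not overlap, although the treated pool of replicate 2 came near its control. The mean log2 ratio was -0.33 ± 0.30 (SD, n = 2), from -0.54 and -0.11 (adjusted p = 0.340).

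For *Myl9*, a regulatory light chain of smooth muscle myosin, the control pools gave 38385 and 29984 and the treated pools 29289 and 26881. Here the control pool of replicate 2 and the treated pool of replicate 1 were nearly equal, so the groups were only just separate. The log2 ratios were -0.39 and -0.16, with a mean of -0.27 ± 0.16 (SD, n = 2) and an adjusted p of 0.341.

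*Smtn*, which encodes the cytoskeletal protein smoothelin, was the exception among the contractile genes. Its brighter probe read 15150 and 14650 in the controls and 16990 and 14903 with IWP-2, and treated and control ranges overlapped. The log2 ratios of 0.17 and 0.02 had a mean of 0.10 ± 0.10 (SD, n = 2; adjusted p = 0.861), with a 95% interval from -0.15 to 0.34. The second probe of *Smtn* gave 0.09 and -0.02, with a mean of 0.04. Over all 11 probes of the members that were bright enough, none passed an FDR of 0.05 (background 2.05% of 26947 probes) and 6 were lower at an unadjusted p under 0.05 in limma (background 4.98%), and *Cnn1* had the lowest adjusted p, at 0.0760.

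*Myh11*, the heavy chain of smooth muscle myosin and a marker of mature cells, was near background in every pool. Its processed intensity was 5.75 and 5.86 in the controls and 4.28 and 4.65 after IWP-2. Of the 4 spots, 1 and 2 were well above background in the control channels and 0 in either treated channel. *Myh11* was therefore neither tested nor given a fold change. Within the control explants, therefore, the probes of *Acta2*, *Tagln*, *Myl9* and *Gata6* were far above background, those of *Cnn1* and *Actg2* clearly above it, that of *Myocd* close to it, and that of *Myh11* not reliably above it.

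**Figure D2:**
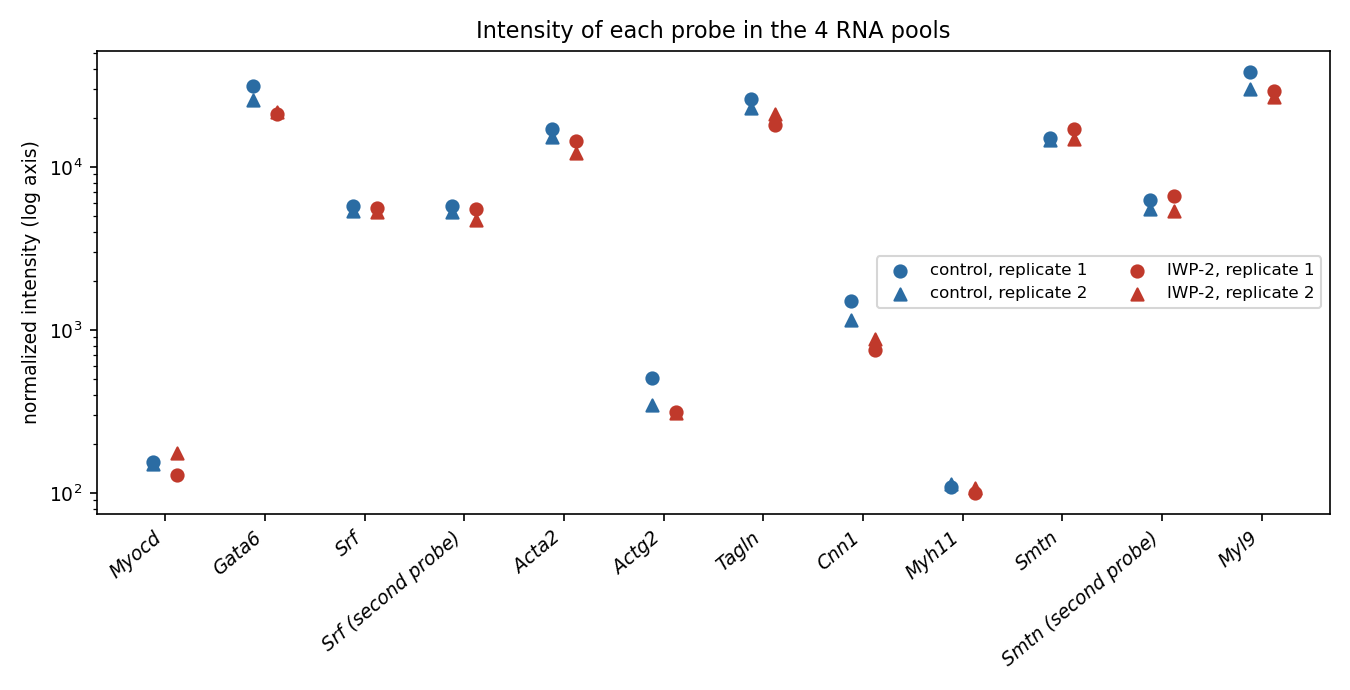
Normalized intensity (vertical log axis) of all 12 probes in the control (blue) and IWP-2 (red) pools, with circles for replicate 1 and triangles for replicate 2. Differences between pools of 1 probe can be read from it, as for *Cnn1* (1500 and 1152 against 750 and 885), but not differences between probes.

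**Figure D3:**
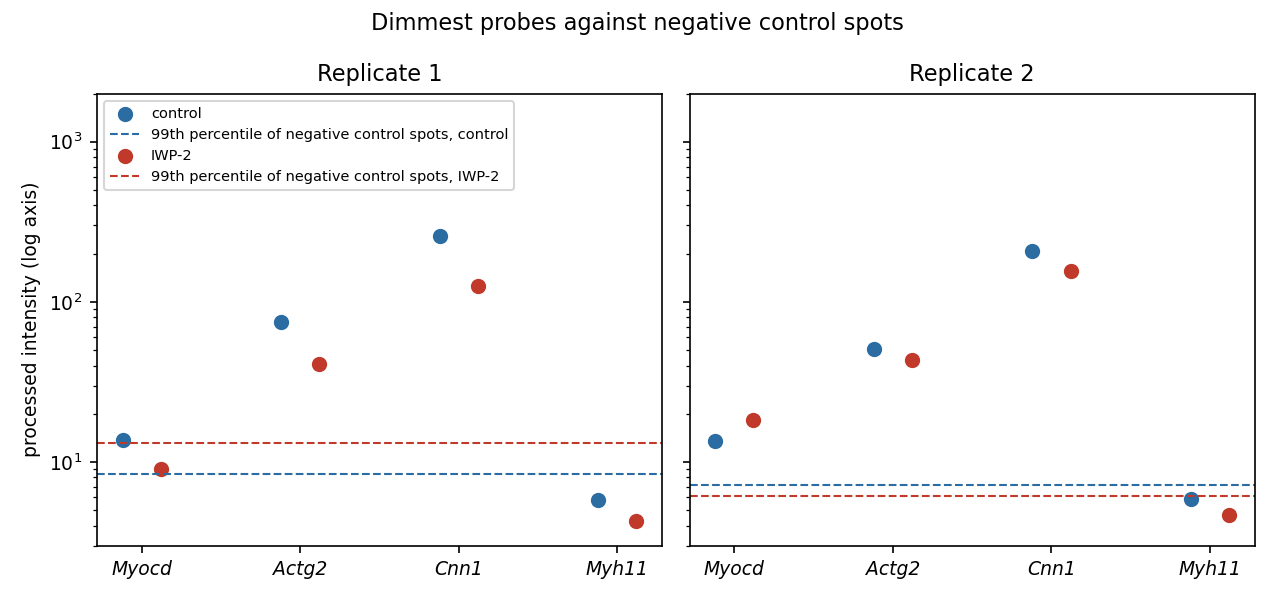
Processed intensity (vertical log axis) of *Myocd*, *Actg2*, *Cnn1* and *Myh11* in control (blue) and IWP-2 (red) channels of each array, with dashed lines at the 99th percentile of negative control spots of the same channel. *Myh11* lies below the lines of its own channels on both arrays, and *Myocd* below its line in the treated channel of replicate 1.

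The differences were not of one size on both arrays. For 8 of the 9 genes the ratio was farther from 0 on replicate 1 than on replicate 2, as for 48.2% of all genes. In *Srf* both ratios were equal to the second decimal. The median ratio of the 9 genes was -0.39 on replicate 1 and -0.16 on replicate 2. The medians of all genes tested were -0.01 and 0.02. Between arrays, *Foxd1*, a gene of the kidney stroma, had ratios of opposite sign, 0.89 on replicate 1 and -0.36 on replicate 2. It was picked after its values were seen, and no list of kidney markers was read. Of the 8 ureteric mesenchyme markers described below, among which it was listed, 6 were lower on both arrays. Per the study's methods, ureters were cut off at the kidney junction and inspected to exclude other tissue. The part of kidney tissue in the difference between arrays was not tested. As the dyes were swapped between the arrays, pool and dye cannot be told apart in a difference between them.

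**Figure D4:**
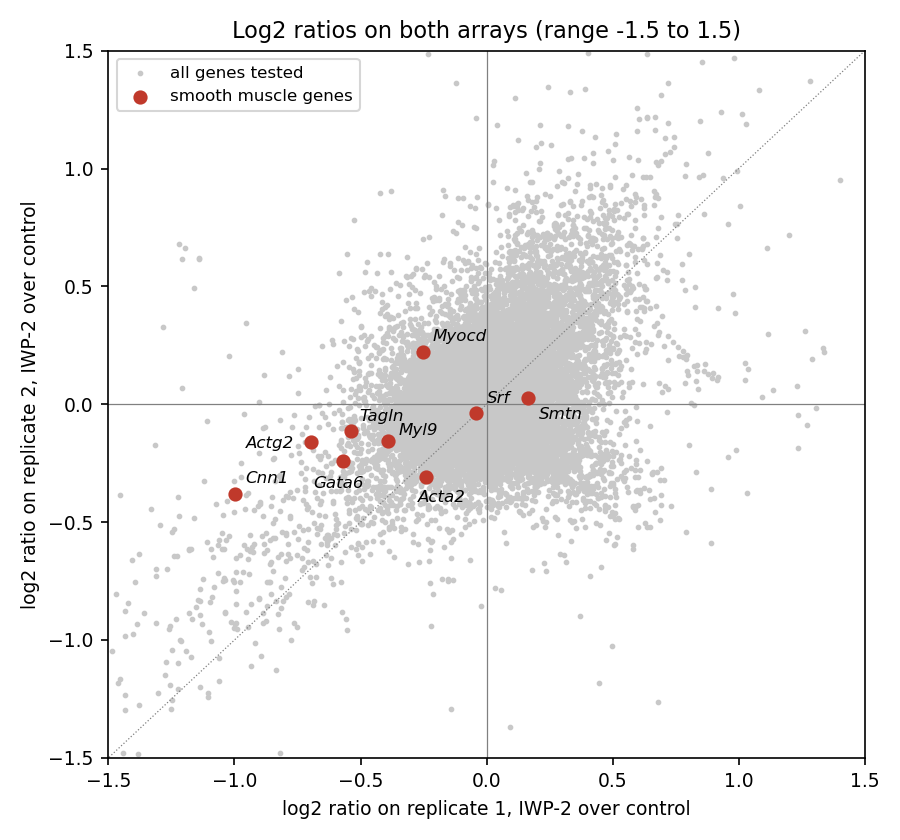
Log2 ratio on replicate 1 (horizontal) against that on replicate 2 (vertical) for all genes tested (grey, within the range drawn) and the 9 tested smooth muscle genes (red), with a dotted line where both are equal. 7 of the 9 lie in the lower left, where both ratios are negative, and 6 of these 7 are nearer to 0 on replicate 2.

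The study's methods used cut-offs on fold change and intensity in place of a test. With a change of 2-fold or more that had the same sign on each array, and 100 or more as processed intensity in whichever channel was brighter, none of the 7 members that were bright enough passed. Over all 14580 genes that were bright enough, 50 passed as lower and 11 as higher, together 0.418%. With 1.5-fold as the cut-off, again no member passed, at a background of 1.60% of these genes.

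Other genes of the contractile program were looked at in a separate list of 25 structural and cytoskeletal genes of smooth muscle, of which 23 were tested. Of these, 3 fell with IWP-2 and none rose at FDR 0.05, where 1.76% of all genes passed in either direction. On both arrays 12 were lower and 3 higher (27.5% and 28.5% of all genes), and 8 were mixed. The median log2 ratio was -0.06. *Pdlim3*, encoding a PDZ and LIM domain protein that binds actinin, fell by 1.12 ± 0.10 on the log2 scale (SD, n = 2; adjusted p = 0.00698), from 1472 and 1533 to 645 and 743. *Mylk*, which encodes the kinase that phosphorylates myosin light chains and so triggers contraction, measured 615 and 480 in the controls and 306 and 286 with IWP-2 (log2 ratio -0.88 ± 0.19, adjusted p = 0.0196). *Nexn*, for the actin-binding protein nexilin, measured 2095 and 2203 against 1146 and 1435 (log2 ratio -0.74 ± 0.18, adjusted p = 0.0319). In all 3, both treated pools lay clearly below both controls on either array. *Lmod1* and *Ckm* were too near background to be tested.

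Of the other actins, *Actc1*, the cardiac α-actin that embryonic smooth muscle can also express, was the one most like the smooth muscle actins in its values. It was lower on both arrays, at -0.62 and -0.25, with a mean of -0.43 ± 0.26 (SD, n = 2) that did not pass the threshold (adjusted p = 0.174). The skeletal actin gene *Acta1* had ratios of opposite sign (-0.50 and 0.33), and so did the non-muscle actins *Actb* (0.42 and -0.30) and *Actg1* (0.45 and -0.15). In a list of non-muscle and striated counterparts of the members, 1 of 15 tested genes passed FDR 0.05, beside 1.76% of all genes. This was *Myl1*, a light chain of skeletal muscle myosin, which rose by 1.18 ± 0.32 (adjusted p = 0.0131). *Myl1* was dim, at 188 and 146 in the controls and 497 and 282 with IWP-2, and all 4 values include the offset of 50.

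Among 14 cofactors and partners of SRF, none passed FDR 0.05, while 3 were lower and 1 was higher at an unadjusted p under 0.05 in limma. Of all genes, 4.74% were lower and 8.67% higher at this level. *Prrx1*, a homeodomain protein of mesenchyme, had a log2 ratio of -0.73 ± 0.39 (adjusted p = 0.0723). *Hopx*, a homeodomain-only protein that can bind SRF, had -0.58 ± 0.10 (adjusted p = 0.0502). At the upper end were *Klf5* (0.38 ± 0.15, adjusted p = 0.168) and *Klf4* (0.28 ± 0.38, adjusted p = 0.514), which encode Krüppel-like factors that act on smooth muscle genes. Among 9 immediate early targets of SRF, genes that growth factors switch on within minutes, none passed FDR 0.05 and 3 were higher at an unadjusted p under 0.05 in limma, beside the same 8.67% of all genes. The 9 include *Srf* itself, which is also a member. The highest ratios were those of *Fosb* (0.48 ± 0.22) and *Fos* (0.38 ± 0.38), and the lowest those of *Ctgf* (-0.12 ± 0.47) and *Ier2* (-0.11 ± 0.22).

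Genes linked to smooth muscle fate in the ureter were read as a list of 17, here called regulators of smooth muscle fate. The list also holds genes that the study used as targets of signaling pathways, namely *Axin2* (WNT), *Ptch1* (SHH), *Id2* and *Id4* (BMP4). Of the 17 genes, 11 fell and none rose at FDR 0.05, where 1.76% of all genes passed in either direction. The median log2 ratio was -0.89. This list was drawn up with results of these samples known, and is no independent evidence of a direction. *Foxf1* (-1.57 ± 0.24, adjusted p = 0.00389) and *Foxf2* (-1.53 ± 0.70, adjusted p = 0.0282), forkhead factors of visceral mesenchyme, were the lowest. The other genes that fell were *Sox9* (-1.30), *Tshz3* (-1.12), *Tbx18* (-1.03), the SHH receptor and target gene *Ptch1* (-1.03), the WNT effector *Lef1* (-0.89), *Id2* (-0.88), *Id4* (-0.78), the BMP ligand gene *Bmp4* (-0.73) and *Gata2* (-0.70). The WNT target *Axin2* was lower on both arrays (-1.38 and -0.64) but narrowly missed the threshold (mean -1.01 ± 0.53, adjusted p = 0.0502). Whether the ratio of these genes differs from that of the contractile genes was not tested.

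**Figure D5:**
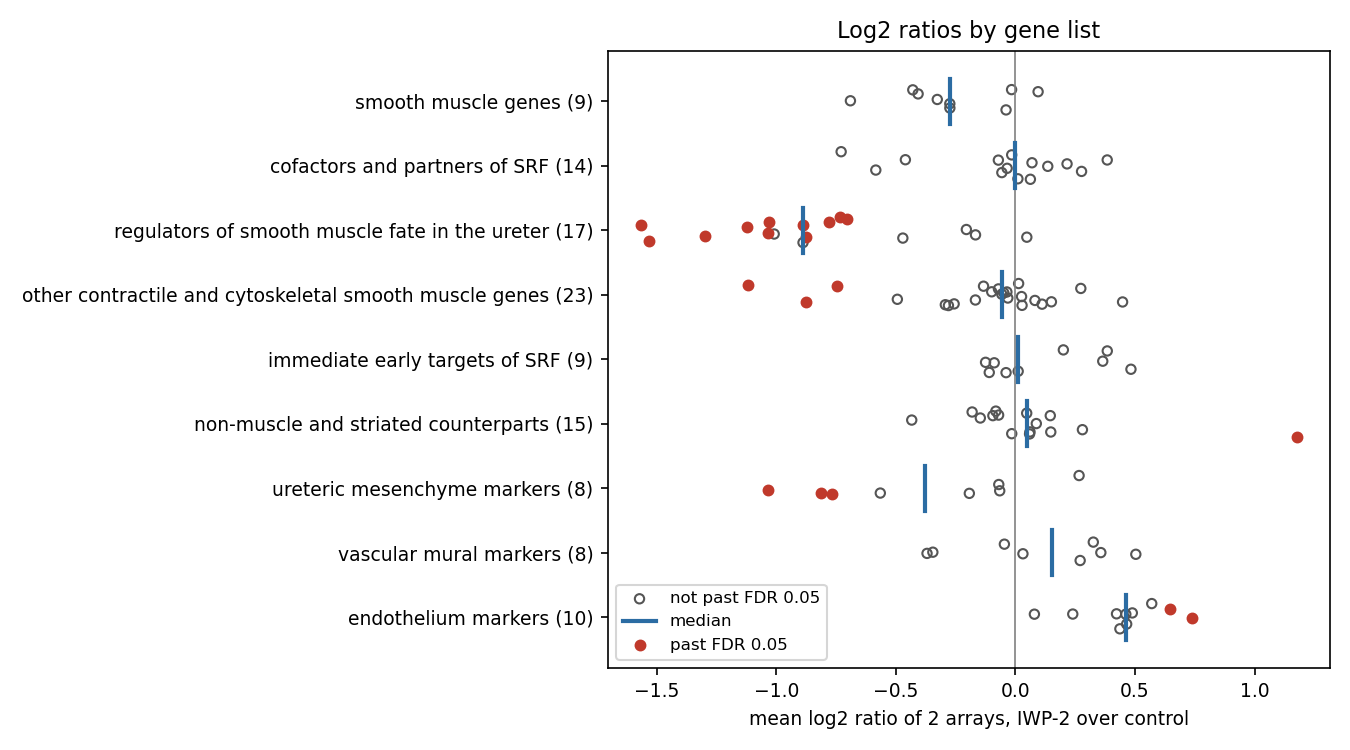
Mean log2 ratio of both arrays (horizontal axis) for the tested genes of each list, with the number tested in brackets, filled red points for genes past FDR 0.05, open points for the others and a blue bar at the median of each list. The smooth muscle genes have their median at -0.27 and the regulators of smooth muscle fate at -0.89.

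Markers of other cell types that express the same genes were read beside these values. Vascular mural cells, which also express *Acta2*, *Tagln* and *Myh11*, were followed by 8 markers. None passed FDR 0.05 in limma, and 2 were lower and 4 higher at an unadjusted p under 0.05 (4.74% and 8.67% of all genes). On both arrays 3 were lower and 4 higher (27.5% and 28.5% of all genes), with a median log2 ratio of 0.15. Their summed normalized intensity was 111868 and 101480 in the controls and 118119 and 100839 with IWP-2, most of it from *Mcam* (63803 and 63563 in the controls), so that the sum follows mainly that probe. *Rgs5* (-0.37 ± 0.14) and *Notch3* (-0.35 ± 0.09) had the lowest ratios and *Pdgfrb* (0.50 ± 0.17) and *Kcnj8* (0.36 ± 0.09) the highest. The part of mural cells in the ratios of the contractile genes was not tested.

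All 10 endothelial markers were higher on both arrays, against 28.5% of all genes, and *Kdr* (0.74 ± 0.20, adjusted p = 0.0359) and *Cldn5* (0.65 ± 0.04, adjusted p = 0.0347) rose at FDR 0.05. Their summed normalized intensity was 76772 and 58160 in the controls and 104823 and 93128 with IWP-2. Of 8 markers of ureteric mesenchyme, the tissue from which the smooth muscle arises, *Tbx18*, *Sfrp2* (-0.81 ± 0.08, adjusted p = 0.0180) and *Tcf21* (-0.77 ± 0.13, adjusted p = 0.0247) fell. At FDR 0.05, 1.76% of all genes passed in either direction. The list includes *Foxd1*, named above as a gene of the kidney stroma, and shares *Tbx18* with the regulators of smooth muscle fate. The markers that did not pass were *Osr1* (-0.56), *Pdgfra* (-0.19), *Col1a1* (-0.07), *Col3a1* (-0.07) and *Foxd1* (0.27). In the study, *Tbx18* and *Sfrp2* were lost or reduced in the mesenchyme of ureters lacking mesenchymal *Ctnnb1*. That result came from RNA in situ hybridization on sections of older embryos with a genetic loss. Stage, method and perturbation thus differ from those of the ratios given here. Of the 8 markers, 6 were lower and none was higher on both arrays, against 27.5% and 28.5% of all genes. Their median log2 ratio was -0.38, beside -0.27 for the smooth muscle genes. Their summed normalized intensity was 373422 and 367999 in the controls and 299132 and 330918 with IWP-2, most of it from the collagen genes *Col3a1* (134275 and 130360 in the controls) and *Col1a1* (86687 and 80828). Of 9 epithelial, 7 skeletal and cardiac muscle and 6 blood markers none passed FDR 0.05 in limma. At an unadjusted p under 0.05, 1 epithelial marker was lower and 3 epithelial, 3 muscle and 5 blood markers were higher, where 4.74% of all genes were lower and 8.67% higher. The medians of these lists were 0.12, 0.21 and 0.44. The part of a shift in cell types in the ratios of the smooth muscle genes was not tested.

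The probes of the members lie, in the coordinates of mouse build mm9 given in the files, at chr11:64991930-64991989 for *Myocd*, chr18:11085039-11085097 for *Gata6*, chr17:46685306-46685365 for the brighter probe of *Srf*, chr19:34316060-34316119 for *Acta2*, chr6:83462904-83462963 for *Actg2*, chr9:45738097-45738156 for *Tagln*, chr9:21913058-21913117 for *Cnn1*, chr16:14202190-14202249 for *Myh11*, chr11:3417530-3417589 for the brighter probe of *Smtn* and chr2:156607301-156607360 for *Myl9*. No gene annotation of this build was used, so that the exon or untranslated region below each probe was not determined.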

How the data were processed

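RNA of 2 treated and 2 control ureter pools was hybridised to 2 arrays of 1 slide, read in 1 scan. The deposited scanner files give, per the file headers (Feature Extraction 12.2.0.7, where the labels name version 10.7.3.1), for either channel the mean spot intensity and the local background, not normalized, and a processed intensity already corrected by the software for background and dye. The authors' series table holds a score per probe, a rounded signed fold change, used as an alternative after conversion to a log2 ratio. Probes of 60 bases were printed 4 times.

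In R 4.3.3 with limma 3.58.1 and data.table (version 1.17.8), mean intensities were background-corrected (normexp, offset 50) and log2 ratios were normalized by loess. Outlier spots (4.51% and 3.30%) were dropped and the spots of a probe averaged. No spot was saturated. Probes were kept if over 0.5 of their spots were well above background, on both arrays, in the channel of the treated or in that of the control pool. The brightest kept probe stood for its gene. Treated and control levels came from these ratios and from quantile-normalized average intensities. Ratios, turned for the dye swap, were fitted with lmFit and eBayes, with 1 residual and 5.52 prior degrees of freedom, with Benjamini-Hochberg adjustment over all genes. Tests are two-sided. The arrays correlated across genes with a Pearson r of 0.465, where genes are not independent replicates. The p-values measure the spread between these pools only, and the number of arrays limits the precision.

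The members and lists were chosen with earlier results of these data known. All members and their probes are named, and of each pathway list the genes past FDR 0.05 or else the 2 lowest and 2 highest. The values of *Axin2* were added because the study used it as a WNT target. *Foxd1* and the cell type markers given by name were chosen after their values were seen. The fit was tested on simulated data with known changes. It recovered 5 of 64 genes with a log2 change of 0.5 and 65 of 72 with a change of 1. Changes as small as those of most members would thus mostly be missed. Alternatives were other background corrections, normalizations, filters, variance priors, a separate-channel model, the series table and leaving out each array.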

Additional observations from a re-analysis of the deposited data

How the results depend on the processing

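The tests rest on 2 arrays with 1 residual degree of freedom, and a gene that missed FDR 0.05 is not shown to be unchanged. The test is paired by design, since it was made on the ratio of the treated and the control pool of each array.

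Over all genes, the 355 calls (232 of them lower) became 0 with the processed intensities and a floor of 15, where 908 genes at the floor had the same ratio on both arrays, and 246 without that floor, a setting chosen after seeing the data, of which 198 were shared. They became 43 with median centring (36 lower), 119 with no filter on dim probes, 0 in the separate-channel model with a dye term (within-spot correlation of 0.253, taken from the model without the dye), 2360 with the rounded series table, 64 at FDR 0.01 and 2699 at an unadjusted p under 0.05 in limma. The cause was not tested for the others. Of the members, 1 passed FDR 0.05 with the series table, *Acta2* (adjusted p = 0.0419), and 6 passed at an unadjusted p under 0.05 in limma. In all other settings with a test none did. The log2 ratio of *Acta2* was -0.26 with the series table and -0.27 in the main fit. That table is rounded, with 53.4% and 52.0% of its fold changes at 1 or -1 on replicates 1 and 2. Rounding can make the ratios of both arrays equal, so its p-values are not comparable with those of the main fit. The count of 6 at an unadjusted p became 2 with the processed intensities and floor, 1 with median centring, 1 with the series table, 4 in the separate-channel model and 5 without the floor. Members lower on both arrays numbered 6 or 7 of 9 over the settings that give this count. With no filter on dim probes, where *Myh11* enters, they were 8 of 10. These counts were added after seeing the data.

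The log2 ratio of *Myocd* turned positive with the processed intensities and floor (0.13), with median centring (5.7e-05) and without replicate 1 (0.22), and was -0.25 without replicate 2. The other 8 tested members kept their direction in all 14 settings. The members' median was -0.16 without replicate 1 and -0.39 without replicate 2. Between FDR 0.01 and an unadjusted p under 0.05 in limma, the cofactors of SRF (14 tested) went from 0 to 4 calls. The regulators of smooth muscle fate (17 tested) went from 1 to 14 and the other contractile genes (23 tested) from 1 to 7. The immediate early genes (9 tested) and the non-muscle and striated counterparts (15 tested) each went from 0 to 3. Of all 20119 genes, 64 passed FDR 0.01, while 4.74% were lower and 8.67% higher at the unadjusted p in limma.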
